A study of Mus musculus with 8 samples.

Results

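Enzymes that write or erase methyl and acetyl groups on histone tails were followed at the mRNA level in CD4 T cells of mouse peripheral lymph nodes (pLN). The genes were taken by name: the lysine demethylases Kdm1 to Kdm8, the lysine methyltransferases Kmt2a to Kmt2e, Ezh1, Ezh2 and the Setd genes, the lysine acetyltransferases of the Kat series, the histone deacetylases of the Hdac series and the sirtuins Sirt1 to Sirt7. Kdm5c, Kdm5d and Kdm6a were left out because the pools mixed sexes. The array held 56 such genes, and 54 were kept. For each of these the brightest probe exceeded background clearly, by the scanner software's flag, in both samples of 1 cell type or more. They were read among 15764 genes tested. No measured difference entered the rule, but the enzymes were chosen with earlier results of these data known. The other 2 genes, Hdac11 and Kmt2a, did not pass the background filter: Kmt2a read 20 to 26 RU and Hdac11 read 20 to 27 RU, where RU is the relative unit of the normalized signal and 20 RU is its floor.

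Methylation of histone H3 at lysine 27, placed by Ezh1 or Ezh2 within the Polycomb repressive complex PRC2, accompanies gene silencing, whereas methylation at lysine 4 and acetylation of histone tails accompany active promoters and enhancers. Demethylases of the LSD and Jumonji families and the deacetylases remove these marks, and many of the enzymes also act on proteins other than histones. In CD4 T cells, Ezh2 is known to take part in TFH differentiation and in keeping the identity of activated Treg, and class IIa deacetylases such as Hdac7 and Hdac9 are known to shuttle between nucleus and cytoplasm in response to antigen receptor signals.

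All cells came from B6.Cg-Foxp3<tm1Mal> mice, in which cells that express Foxp3, the transcription factor of regulatory T cells, also make EGFP. Mice were 8 to 14 weeks old, were immunized subcutaneously with the antigen KLH in alum and were killed on day 12 (d12) or day 25 (d25) post immunization (p.i.). For each array the pLN cells of 8 to 15 mice of mixed sex were pooled and sorted, and 25 ng of RNA were labelled. Naïve CD4 T cells were negative for GFP, PD1 and GL7, and Treg were GFP+ but likewise negative for PD1 and GL7. TFH were GFP- and PD1 high with GL7, a carbohydrate of germinal centre lymphocytes, and TFR were GFP+ and PD1 high with or without GL7. Each cell type had 1 array on d12 and 1 on d25, so the 2 arrays of a cell type differed in day as well as in mice, and no unimmunized animals are among them. Naïve cells served as the counterpart of TFH and Treg as that of TFR.

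The sorted cells carried their defining transcripts, but the regulatory marker Ikzf2 was high in TFH too. Foxp3 read 37266 to 49262 RU on the 4 arrays of GFP+ cells and 66 to 358 RU on the 4 arrays of GFP- cells. Lrrc32, another regulatory marker, read 24757 to 33687 RU and 62 to 128 RU on these. Ikzf2 read 81 and 145 RU in naïve cells, 10506 and 10814 RU in TFH, 9925 and 11103 RU in Treg, and 22902 and 28617 RU in TFR. Bcl6, the transcription factor of follicular T cells, read 23711 to 112804 RU in TFH and TFR against 5277 to 6877 RU in naïve cells and Treg. The summed level of 11 B cell genes lay between 5448 and 18128 RU on 7 arrays and reached 39033 RU in TFH on d25. The summed level of 5 CD8 T cell genes was 12060 and 12213 RU in naïve cells and 2711 to 6049 RU elsewhere. The part of these other cell types in the results was not tested. All d12 samples shared 1 slide, whereas on d25 naïve cells and TFH lay on another slide and Treg and TFR on yet another. TFH against naïve cells and TFR against Treg could thus be read within slides on both days, whereas TFR against TFH, and Treg against naïve cells, crossed slides on d25. On the arrays 18261 to 19867 of 39429 probes were well above background, and none was saturated.

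Promoter sequences of RefSeq (GRCm38.p6) were found for 42 of the 54 genes, and the 250 bases before each annotated start were read. The enzyme genes had a median of 17 CG dinucleotides in these windows, against 6 over the windows of all 27025 RefSeq genes. The ratio of observed to expected CG was at least 0.6 in 73.8% of their 61 windows against 34% of all 32851 windows. These RefSeq genes were not limited to the 15764 tested above background, so the contrast cannot be read as particular to the enzymes. A ratio of 0.6 is used in definitions of CpG islands. Shown here are the windows of Ezh2, which rose in TFH and TFR, and of the class IIa deacetylases Hdac4, Hdac7 and Hdac9, which were highest in TFR. For Hdac7, the window with the highest CG ratio of 4 is shown. Capitals mark CCAAT or its reverse complement ATTGG, the letters of the box that NF-Y binds.
Ezh2 (chr6:47595031-47595280, minus strand): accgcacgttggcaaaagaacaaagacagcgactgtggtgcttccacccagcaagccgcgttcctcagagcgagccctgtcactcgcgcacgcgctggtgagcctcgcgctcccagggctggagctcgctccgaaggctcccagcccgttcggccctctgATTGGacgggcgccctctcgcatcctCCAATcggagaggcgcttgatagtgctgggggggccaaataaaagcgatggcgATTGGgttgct
Hdac4 (chr1:92180342-92180591, minus strand): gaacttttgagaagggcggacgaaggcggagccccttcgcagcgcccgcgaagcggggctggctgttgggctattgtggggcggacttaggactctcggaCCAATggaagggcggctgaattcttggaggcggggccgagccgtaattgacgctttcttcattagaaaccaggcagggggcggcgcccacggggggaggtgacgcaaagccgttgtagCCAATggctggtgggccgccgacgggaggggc
Hdac7 (chr15:97831768-97832017, minus strand): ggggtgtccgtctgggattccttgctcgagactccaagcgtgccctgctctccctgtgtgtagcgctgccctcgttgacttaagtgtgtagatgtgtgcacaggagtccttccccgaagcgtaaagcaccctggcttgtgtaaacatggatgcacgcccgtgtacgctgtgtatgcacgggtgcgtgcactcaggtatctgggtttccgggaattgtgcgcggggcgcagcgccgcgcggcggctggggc
Hdac9, distal start (chr12:34917096-34917345, minus strand): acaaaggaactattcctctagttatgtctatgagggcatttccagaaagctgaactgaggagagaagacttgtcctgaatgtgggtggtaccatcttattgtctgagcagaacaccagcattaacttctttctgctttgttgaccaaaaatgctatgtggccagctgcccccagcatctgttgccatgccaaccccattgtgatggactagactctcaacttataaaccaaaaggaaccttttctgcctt
Hdac9, internal start (chr12:34528890-34529139, minus strand): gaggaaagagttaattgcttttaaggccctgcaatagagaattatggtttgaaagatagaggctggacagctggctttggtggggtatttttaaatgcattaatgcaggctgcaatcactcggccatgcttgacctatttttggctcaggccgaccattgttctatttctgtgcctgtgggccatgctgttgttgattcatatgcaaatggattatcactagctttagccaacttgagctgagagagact
The Ezh2 window held 3 CCAAT boxes on both strands together, a number reached by 2.79% of all windows. The Hdac4 window held 2, which 10.1% of all windows reached, and the Hdac7 and Hdac9 windows shown held none of these letters. At least 1 CCAAT occurred in 42.6% of the enzyme windows and in 33.8% of all windows. The letters TTTGGCGC or TTTCCCGC, forms of the E2F site, searched on both strands, occurred in 1.64% of the enzyme windows, in Sirt4, and in 1.3% of all windows. The windows of Ezh2, Hdac4 and Hdac7 shown here held 23, 23 and 21 CG dinucleotides. The distal window of Hdac9 held none, as did 7.87% of all windows, and its internal window held 2. The array probes do not tell from which start a transcript came.

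The enzyme genes as a group moved about as often as other genes. Differences were called at an adjusted p below 0.05 in limma, over all 15764 genes. In TFH, 22 of the 54 genes differed from naïve cells, or 40.7%, against 46.5% of all genes tested. Of these, 13 were higher and 9 lower, against 20.9% and 25.6% of all genes. In TFR, 24 of the 54 differed from Treg, or 44.4%, against 39.6% of all genes. There 13 were higher and 11 lower, against 18.7% and 20.9% of all genes. The median absolute log2 difference of the enzymes was 0.29 in TFH and 0.36 in TFR, against 0.44 and 0.38 over all genes. With both follicular cell types averaged against both counterparts, 30 of 54 passed, or 55.6%, against 59.1% of all genes.

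The enzymes moved largely alike in the follicular comparisons of Foxp3- and Foxp3+ cells. These share no array, but they came from the same fit with the same estimate of spread for each gene, so their calls are not independent. The sign of the difference was the same for 40 of 54 genes, or 74.1%, against 80.1% of all genes. Both comparisons passed with one sign for 16 enzymes, or 29.6%, against 27.8% of all genes. Of these 16, 9 rose (Ezh2, Hdac3, Kdm2b, Kdm4a, Kdm4d, Kdm6b, Setd5, Sirt3 and Sirt4) and 7 fell (Kat2a, Kat2b, Kat8, Kdm7a, Setd1b, Setd6 and Sirt1). Kdm4d and Kdm7a, dim and kept only through the cell types in which they are high, are among these. In a separate limma fit of only the genes well above background on all 8 arrays, with adjustment over those genes, 20 enzymes passed in TFH and 21 in TFR. The share of all genes in that fit is not given here. No enzyme passed in opposite directions, and 24 passed in neither comparison. The enzymes that passed in neither were Hdac1, Hdac5, Hdac10, Kat5, Kat6b, Kdm1a, Kdm1b, Kdm2a, Kdm3a, Kdm3b, Kdm4b, Kdm5a, Kdm5b, Kdm8, Kmt2b to Kmt2e, Setd1a, Setd2, Setd3, Setd7, Setd8 and Sirt6. Their differences lay between -0.54 and 0.35 in the 2 comparisons, and the arrays of Kdm5a, at 407 to 1270 RU, spread the most. The value of 0.35 is that of Kdm3b in TFH, and its probes disagreed. A second Kdm3b probe, well above background on all 8 arrays, gave -0.35 in TFH and -1.12 in TFR.

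**Figure D1:**
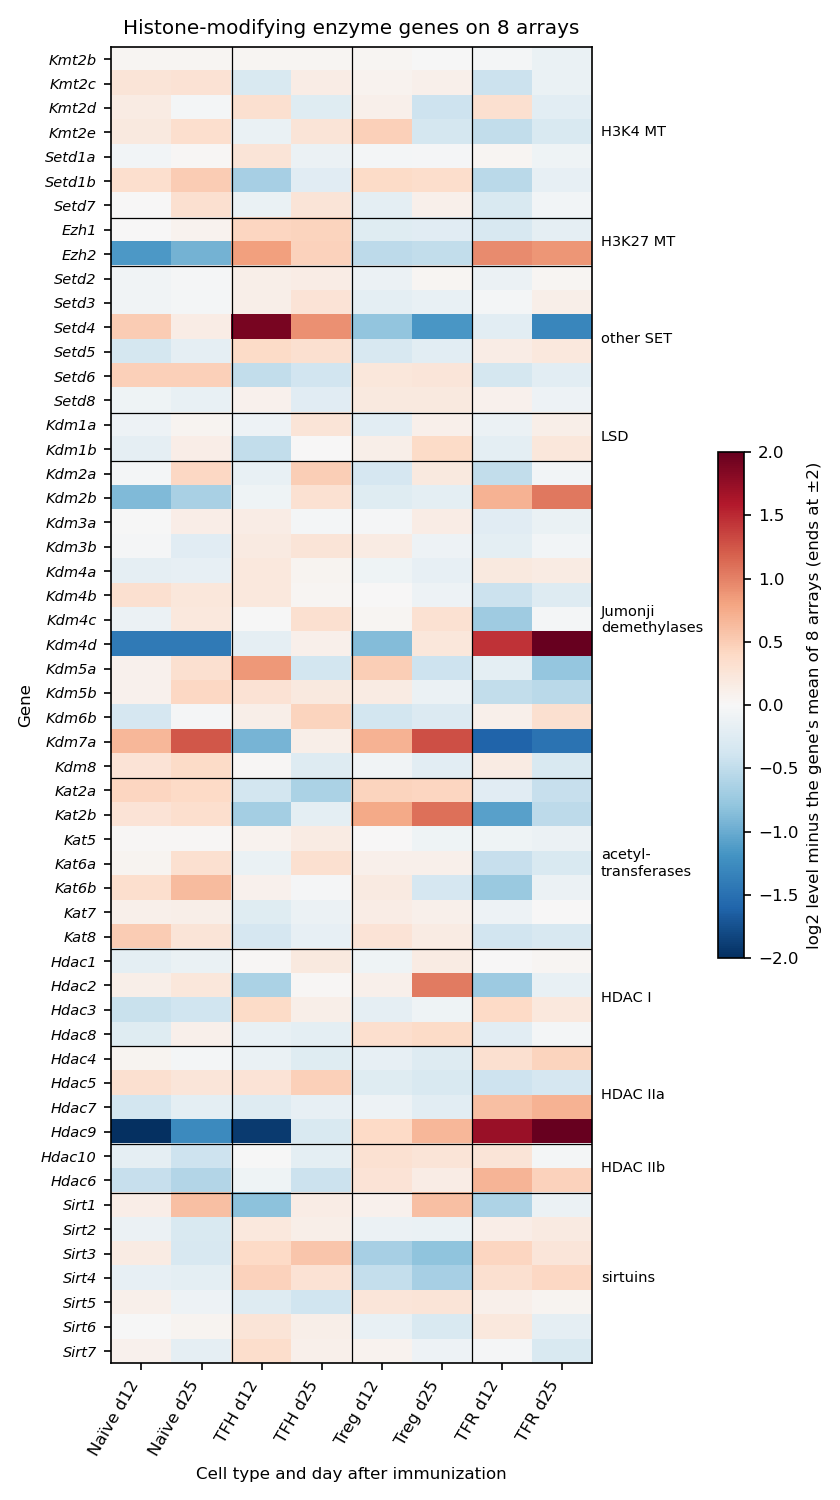
Log2 level of each of the 54 enzyme genes on each of the 8 arrays minus the mean of the gene over the 8 arrays, with genes in rows by enzyme class and arrays in columns by cell type and day; the colour scale ends at 2 in either direction. Ezh2 and Kdm2b were above their mean in both TFR arrays, Kat2a and Kat8 were below theirs in all 4 follicular arrays, and Hdac9 was lowest in naïve cells and highest in TFR.

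**Figure D2:**
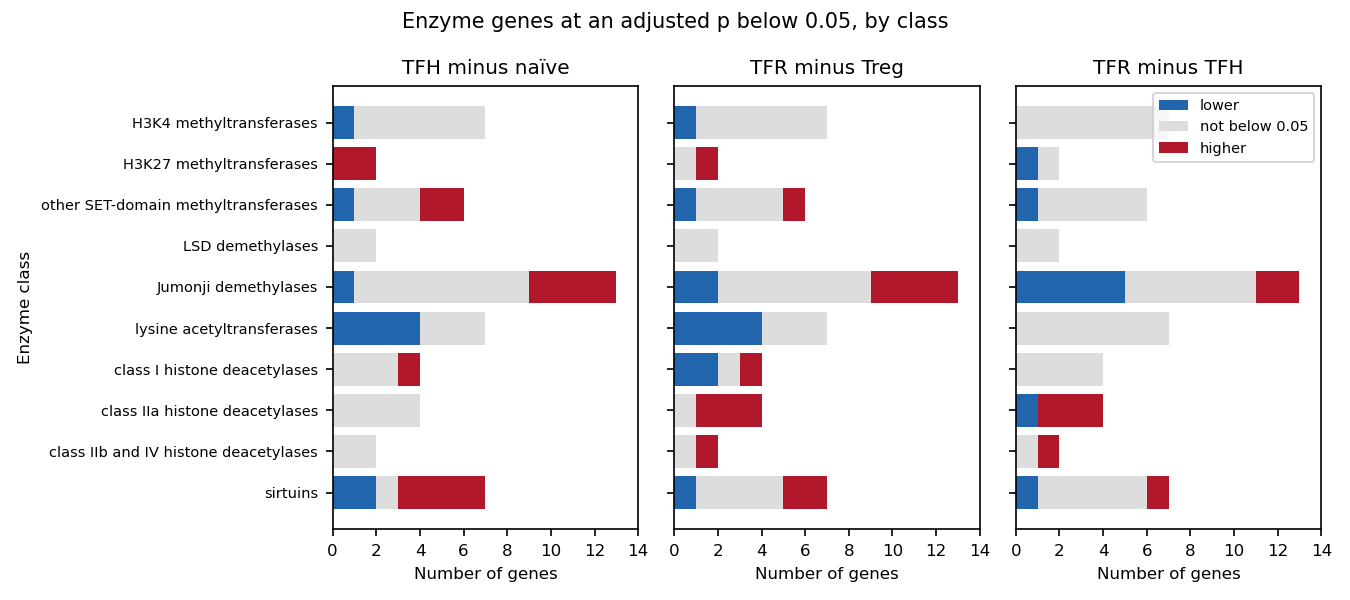
Number of enzyme genes per class (rows) that were lower, higher or not below an adjusted p of 0.05 in TFH minus naïve, TFR minus Treg and TFR minus TFH (panels); each bar adds up to the genes of the class that passed the background filter. Of 7 acetyltransferases 4 were lower in each follicular comparison, against 25.6% of all genes in TFH and 20.9% in TFR. Of 4 class IIa deacetylases 3 were higher in TFR than in Treg and TFH, against 18.7% and 11.6% of all genes. Hdac9, kept only through Treg and TFR, where it is high, is among these 3.

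Ezh2, the catalytic subunit of PRC2 that dominates in dividing cells, rose in both follicular cell types. Its probe lies at chr6:47480307-47480366 (NCBI37, minus strand). It read 1447 and 1670 RU in naïve cells on d12 and d25, 5689 and 4400 RU in TFH, 2220 and 2285 RU in Treg, and 6189 and 5890 RU in TFR. Both follicular cell types lay above both counterparts on every array. On the log2 scale it was higher by 1.69 ± 0.16 (SE, 2 arrays per cell type) in TFH with an adjusted p of 0.00142, and 1.42 ± 0.16 in TFR with an adjusted p of 0.00362. The difference of these changes was -0.26 ± 0.22 with an adjusted p of 0.522, and its interval ran from -0.83 to 0.30. TFR and TFH differed by 0.27 ± 0.16, with an interval from -0.13 to 0.67 and an adjusted p of 0.272. Among the enzymes, Ezh2 was the only one whose 2 follicular calls held under all 20 alternative settings and left-out arrays that were run. These include a minimum log2 difference of 1, which only Ezh2, Kdm4d and Kdm7a reached in both comparisons. All other enzymes failed that setting in advance, so this result rests in large part on the size of the difference.

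Genes of DNA replication and mitosis mostly rose in both follicular comparisons, in which Ezh2 rose too. The summed level of 19 such genes was 104000 and 105618 RU in naïve cells, 185547 and 170741 RU in TFH, 121202 and 128394 RU in Treg, and 311959 and 287197 RU in TFR. Of the 18 that were tested, 13 (72.2%) were higher in TFH than in naïve cells, against 20.9% of all genes. In TFR 17 (94.4%) were higher than in Treg, against 18.7%, and 14 (77.8%) were higher than in TFH, against 11.6%. Their median log2 difference between TFR and TFH was 1.10, where that of Ezh2 was 0.27. The part of cell division in the Ezh2 result was not tested. Ezh2 in TFH exceeded naïve cells by 1.97 on the log2 scale on d12 and by 1.40 on d25.

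Ezh1, the PRC2 subunit more typical of resting cells, had a different order. It read 18034 and 18833 RU in naïve cells, 24096 and 24404 RU in TFH, 15152 and 15202 RU in Treg, and 14238 and 15849 RU in TFR. Both TFH arrays were the highest, both naïve arrays came next, and the ranges of Treg and TFR overlapped. TFH exceeded naïve cells by 0.40 ± 0.09 (adjusted p = 0.0182), and TFR lay below TFH by -0.69 ± 0.09 (adjusted p = 0.00785). TFR minus Treg was -0.01 ± 0.09, with an interval from -0.24 to 0.21. The change in Foxp3+ minus that in Foxp3- cells was -0.41 ± 0.12 and did not pass, with an adjusted p of 0.119. A second bright probe of Ezh1 gave 0.41 in TFH and -0.03 in TFR, whereas a much dimmer further probe gave -0.10 and -1.46.

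The other PRC2 subunits did not follow Ezh2 as a group. Of 9 partner genes, 2 passed in TFH and 1 in TFR, or 22.2% and 11.1% against 46.5% and 39.6% of all genes. All were higher, with a median log2 difference of -0.04 and 0.06. Phf19, which guides PRC2 to methylated histone, rose by 0.88 ± 0.22 in TFH and 1.32 ± 0.22 in TFR. Jarid2, an accessory subunit, rose by 0.85 ± 0.21 in TFH. The core subunits Eed and Suz12 did not pass in TFH or TFR, with values from -0.17 to 0.06.

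Of the 4 class IIa deacetylases, which act mainly as scaffolds for corepressors, 3 rose in TFR over Treg and none passed in TFH, where limma gave 0 with an unadjusted p below 0.05. The 3 are 75% of the class, against 18.7% of all genes higher in TFR than in Treg. In TFH 46.5% of all genes passed. Hdac9, kept only through Treg and TFR, where it is high, is among the 3, so this tally is a description. Hdac7 is the form that is abundant in T lineage cells, and its probe lies at chr15:97623208-97623267 (NCBI37). It read 15733 and 17645 RU in naïve cells, 16815 and 18019 RU in TFH, 18746 and 17415 RU in Treg, and 30612 and 32862 RU in TFR. Both TFR arrays lay well above the other 6, which overlapped. TFR exceeded Treg by 0.81 ± 0.10 (adjusted p = 0.00502), whereas TFH minus naïve was 0.06 ± 0.10, with an interval from -0.20 to 0.32.

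Hdac4, a related scaffold, had the same shape at a lower signal, with its probe at chr1:93829554-93829613. It read 1904 and 1780 RU in naïve cells, 1669 and 1548 RU in TFH, 1628 and 1537 RU in Treg, and 2282 and 2493 RU in TFR. Again the 2 TFR arrays were the highest. TFR exceeded Treg by 0.59 ± 0.10 (adjusted p = 0.0109), and TFH minus naïve was -0.20 ± 0.10 with an interval from -0.45 to 0.06.

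Hdac4 and Hdac7 were the 2 of 54 enzymes, or 3.7%, whose follicular change itself differed between Foxp3+ and Foxp3- cells, against 8.49% of all genes. Both differences were positive, a direction that 4.03% of all genes took, while 4.46% were called negative. For Hdac4 the difference was 0.79 ± 0.14 (adjusted p = 0.0382), with 0.68 on d12, within 1 slide, and 0.90 on d25. For Hdac7 it was 0.75 ± 0.14 (adjusted p = 0.0449), with 0.61 on d12 and 0.89 on d25. The calls were close to the threshold: leaving out any 1 of the 8 arrays raised the adjusted p to between 0.0687 and 0.145 for Hdac4 and between 0.0856 and 0.170 for Hdac7. With slide as the block it was 0.0777 and 0.0869. A dimmer second probe of Hdac4 gave a difference of 0.67, made up of -0.71 in TFH and -0.04 in TFR, so it did not show the rise in TFR over Treg.

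Hdac9, which is known to restrain Treg function in mice, was found mainly in Foxp3+ cells. It read 20 and 36 RU in naïve cells, 23 and 70 RU in TFH, 114 and 138 RU in Treg, and 286 and 609 RU in TFR. The order of the 4 cell types was the same on both days, and naïve cells and TFH overlapped while Treg and TFR stood clear of each other and of both. The probe was not well above background in naïve cells and was so on 1 of 2 TFH arrays, so folds against these are bounds. The gene passed the background filter through Treg and TFR, where it is high, so these folds are a description. TFR was at least 8.01-fold above TFH, and Treg at least 2.15-fold above naïve cells. With normexp background correction (offset 50), the log2 differences were 1.5 in place of 3.40 and 0.60 in place of 2.23, and Treg against naïve cells no longer passed (adjusted p = 0.0935). TFR exceeded Treg, measured on all 4 arrays, by 1.73 ± 0.32 (adjusted p = 0.0142), or 3.33-fold, and by 1.08 on the log2 scale under normexp. A second Hdac9 probe stayed at the floor of 20 RU on all 8 arrays.

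Hdac5 ran the other way. It read 7282 and 6892 RU in naïve cells, 7059 and 8125 RU in TFH, 4912 and 4731 RU in Treg, and 4366 and 4633 RU in TFR. All 4 Foxp3+ arrays lay below all 4 Foxp3- arrays. Treg differed from naïve cells by -0.56 ± 0.11 (adjusted p = 0.0413) and TFR from TFH by -0.75 ± 0.11 (adjusted p = 0.0111). Within Foxp3+ and Foxp3- cells the follicular change was -0.10 and 0.10, with intervals from -0.37 to 0.17 and from -0.18 to 0.37.

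**Figure D3:**
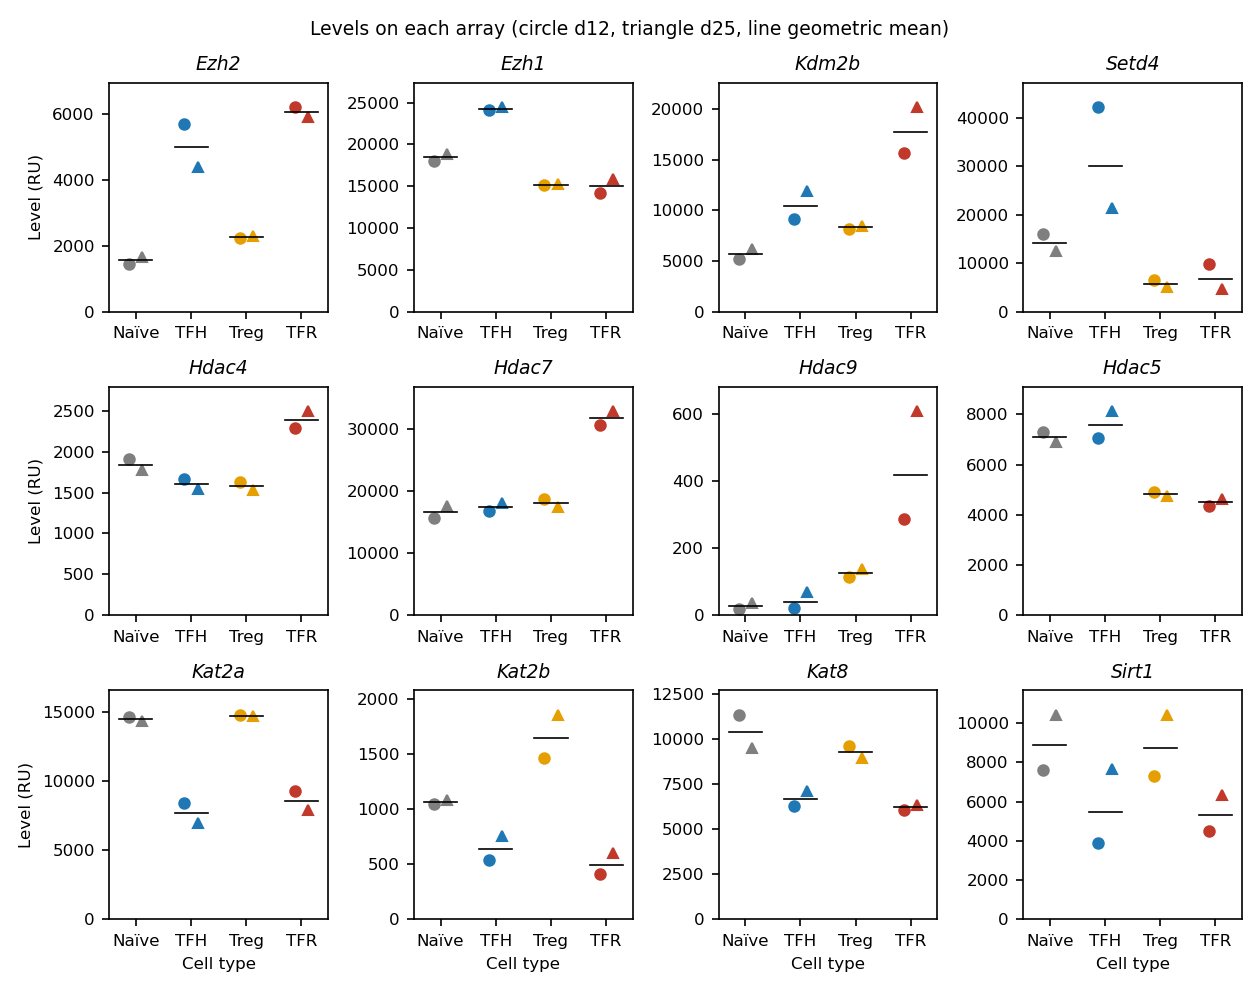
Level in RU (linear axis from 0) of 12 enzyme genes in naïve cells, TFH, Treg and TFR, with a circle for the d12 array, a triangle for the d25 array and a line at their geometric mean. The TFR arrays of Hdac4, Hdac7 and Hdac9 sit above all others, those of Hdac5 sit with Treg, and Kat2a and Kat8 are lower in TFH and TFR than in naïve cells and Treg.

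Among the class IIb and class I deacetylases, Hdac6 and Hdac2 had the widest ranges over cell types. Hdac6, a cytoplasmic tubulin deacetylase, read 1208 and 1111 RU in naïve cells, 1561 and 1229 RU in TFH, 2021 and 1841 RU in Treg, and 2675 and 2294 RU in TFR. Foxp3+ cells were higher on every array. Treg exceeded naïve cells by 0.74 ± 0.10 (adjusted p = 0.0151), TFR exceeded TFH by 0.84 ± 0.10 (adjusted p = 0.00631) and Treg by 0.36 ± 0.10 (adjusted p = 0.0387). Hdac10, a polyamine deacetylase, was higher in Treg than in naïve cells by 0.58 ± 0.10 (adjusted p = 0.0288), at 3471 and 3378 RU against 2475 and 2110 RU.

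Among the class I enzymes, which form the catalytic cores of the Sin3, NuRD, CoREST and NCoR complexes, Hdac3 rose in both follicular cell types. It read 1555 and 1614 RU in naïve cells, 2761 and 2313 RU in TFH, 1875 and 2009 RU in Treg, and 2793 and 2467 RU in TFR, with no overlap between a follicular cell type and its counterpart. It rose by 0.67 ± 0.12 in TFH (adjusted p = 0.0111) and 0.44 ± 0.12 in TFR (adjusted p = 0.0454). Hdac1 read 36825 to 48143 RU on all arrays, and its differences of 0.27 ± 0.09 in TFH and -0.02 ± 0.09 in TFR did not pass, with adjusted p of 0.0729 and 0.894.

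Hdac2 was dim here, at 107 and 116 RU in naïve cells, 64 and 100 RU in TFH, 106 and 202 RU in Treg, and 60 and 89 RU in TFR. It was well above background on 7 of 8 arrays, the exception being TFR on d12. Treg was at least 2.01-fold above TFR (adjusted p = 0.0173), and the log2 difference was -0.58 under normexp. TFH minus naïve was -0.48 ± 0.20 (adjusted p = 0.106). Hdac8 fell in TFR against Treg by -0.48 ± 0.12 (adjusted p = 0.0347).

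The lysine acetyltransferases were lower in follicular cells or did not pass. Of the 7, 4 were lower in TFH (Kat2a, Kat2b, Kat7 and Kat8) and 4 in TFR (Kat2a, Kat2b, Kat6a and Kat8), while 3 did not pass in each. This is 57.1% in each comparison, against 46.5% and 39.6% of all genes. Kat2a, known as GCN5, is the catalytic subunit of the SAGA and ATAC coactivators, and its probe lies at chr11:100566069-100566128. It read 14635 and 14345 RU in naïve cells, 8455 and 6987 RU in TFH, 14806 and 14705 RU in Treg, and 9268 and 7914 RU in TFR. The counterparts were nearly equal to each other and both follicular cell types lay clearly below. The log2 difference was -0.91 ± 0.11 in TFH (adjusted p = 0.00296) and -0.78 ± 0.11 in TFR (adjusted p = 0.0064), and a second probe gave -1.03 and -0.89.

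Kat2b, known as PCAF, is the paralogue that takes the place of Kat2a in the same complexes, and its probe lies at chr17:53811093-53811152. It read 1041 and 1082 RU in naïve cells, 539 and 755 RU in TFH, 1459 and 1854 RU in Treg, and 407 and 599 RU in TFR. Treg were the highest on both days and TFR the lowest, with TFR and TFH overlapping. The log2 difference was -0.73 ± 0.15 in TFH (adjusted p = 0.014) and -1.74 ± 0.15 in TFR (adjusted p = 0.00196), or 1.66-fold and 3.33-fold lower. The difference of these changes was -1.0 ± 0.21, with -0.89 on d12 and -1.11 on d25, and did not pass, with an adjusted p of 0.0537. It passed in 4 of the alternatives, with the lowest adjusted p at 0.0304 under normexp background correction. TFR minus TFH was -0.37 ± 0.15 with an interval from -0.75 to 0.01.

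Kat8, which acetylates histone H4 at lysine 16, read 11318 and 9473 RU in naïve cells, 6247 and 7088 RU in TFH, 9572 and 8919 RU in Treg, and 6053 and 6326 RU in TFR. It fell by 0.64 ± 0.13 in TFH (adjusted p = 0.0157) and by 0.58 ± 0.13 in TFR (adjusted p = 0.0252), on both days. Kat7 was lower in TFH by -0.30 ± 0.09 (adjusted p = 0.0464) and Kat6a was lower in TFR by -0.49 ± 0.13 (adjusted p = 0.0397). Their differences between the Foxp3+ and Foxp3- comparisons were 0.12 (adjusted p = 0.601) and -0.39 (adjusted p = 0.275), so neither was shown to be limited to 1 lineage.

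Among partner subunits and other acetyltransferases, more genes were lower than higher, as was also the case over all genes. Of 23 tested, 2 were higher and 6 lower in TFH, and 4 were higher and 11 lower in TFR. These are 34.8% and 65.2%, against 46.5% and 39.6% of all genes, with a median log2 difference of -0.23 and -0.33 against -0.07 and -0.08 over all genes. Brd1, a scaffold of the Kat6 and Kat7 complexes, fell by 0.97 ± 0.17 in TFH and by 1.40 ± 0.17 in TFR. Meaf6, a small subunit of the same complexes and of the Kat5 complex, rose by 0.85 ± 0.09 and 0.92 ± 0.09. Tada2b, the adaptor of SAGA, fell as well, by 0.94 ± 0.20 and 0.91 ± 0.20, but was well above background on only 3 of 8 arrays. Among 11 readers of acetylated lysine, 2 were lower in TFH and 1 in TFR, or 18.2% and 9.09%. Mllt3 fell by 0.50 ± 0.12 in TFH and by 0.82 ± 0.12 in TFR.

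Of 24 subunits that hold the deacetylases in their complexes, 4 were higher and 4 lower in TFH, and 5 passed in TFR, all lower. At 33.3% and 20.8% these shares lay below the 46.5% and 39.6% of all genes. Sap18 of the Sin3 complex fell by 0.87 ± 0.17 in TFH and by 1.11 ± 0.17 in TFR, Chd3 of NuRD fell by 0.64 ± 0.10 in TFR, and Sap30 rose by 0.98 ± 0.23 in TFH. Rcor2, a CoREST scaffold that joins Kdm1a to Hdac1 and Hdac2, went in opposite directions. It read 502 and 405 RU in naïve cells, 752 and 676 RU in TFH, 446 and 500 RU in Treg, and 229 and 258 RU in TFR, and the 2 changes of 0.66 and -0.96 differed by -1.62 ± 0.22 (adjusted p = 0.0197). It was the 1 gene of this list whose follicular change passed the test of the difference between Foxp3+ and Foxp3- cells.

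Of the NAD-dependent sirtuins, 6 of 7 passed in TFH and 3 of 7 in TFR, or 85.7% and 42.9% against 46.5% and 39.6% of all genes. The mitochondrial Sirt3 and Sirt4 rose in both. Sirt3 read 1598 and 1144 RU in naïve cells, 1886 and 2101 RU in TFH, 909 and 825 RU in Treg, and 1932 and 1702 RU in TFR. Treg were the lowest on both days. It rose by 0.56 ± 0.16 in TFH (adjusted p = 0.0443) and by 1.07 ± 0.16 in TFR (adjusted p = 0.00869). Sirt4 rose by 0.55 ± 0.11 in TFH (adjusted p = 0.013) and by 0.93 ± 0.11 in TFR (adjusted p = 0.00403), but a second probe gave -0.11 in TFH and 0.72 in TFR.

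Sirt1, the nuclear deacetylase of p53 and histones, fell in both. It read 7597 and 10429 RU in naïve cells, 3890 and 7673 RU in TFH, 7285 and 10427 RU in Treg, and 4503 and 6334 RU in TFR. The d25 array was the higher one in each of the 4 cell types, so the ranges of TFH and naïve cells overlapped while each day on its own showed the fall. The log2 difference was -0.70 ± 0.16 in TFH (adjusted p = 0.0199) and -0.71 ± 0.16 in TFR (adjusted p = 0.0237). Sirt2 and Sirt7 rose in TFH, by 0.38 ± 0.09 and 0.28 ± 0.08, and Sirt5, a mitochondrial desuccinylase, fell there by 0.33 ± 0.09. The probes of Sirt7 disagreed: 2 further ones gave -0.11 and 0.27 in TFH, and -0.67 and 0.09 in TFR. None of Sirt2, Sirt7 and Sirt5 passed the test of the difference from the TFR change, with adjusted p of 0.724, 0.0979 and 0.518.

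Of the 7 H3K4 methyltransferases kept, Setd1b alone passed, and it was lower in both follicular cell types. It read 20445 and 22829 RU in naïve cells, 10170 and 13832 RU in TFH, 21100 and 20554 RU in Treg, and 11085 and 14449 RU in TFR. The log2 difference was -0.87 ± 0.14 in TFH (adjusted p = 0.00838) and -0.72 ± 0.14 in TFR (adjusted p = 0.018). Kmt2d, an enhancer methyltransferase, read 197 to 330 RU and differed by -0.02 ± 0.12 in TFH and 0.21 ± 0.12 in TFR, with intervals from -0.33 to 0.29 and from -0.10 to 0.52. Of 9 partners in the COMPASS complexes, 5 were lower in TFH and 2 in TFR, or 55.6% and 22.2% against 46.5% and 39.6% of all genes. Wdr82, which ties Setd1a and Setd1b to RNA polymerase, fell by 0.61 ± 0.10 in TFH and by 1.29 ± 0.10 in TFR, at 14186 and 13526 RU in naïve cells, 8523 and 9644 RU in TFH, 26199 and 26670 RU in Treg, and 10183 and 11477 RU in TFR. The core subunits Rbbp5 and Wdr5 fell by 0.47 ± 0.11 and 0.43 ± 0.11 in TFH, and Cxxc1, which binds unmethylated CpG, fell by 0.30 ± 0.09 in TFR.

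Other SET-domain enzymes held one of the wider ranges. Setd4, a methyltransferase known from quiescent stem cells, read 16118 and 12504 RU in naïve cells, 42150 and 21430 RU in TFH, 6565 and 5060 RU in Treg, and 9791 and 4587 RU in TFR. TFH were the highest on both days and all Foxp3+ arrays lay below all Foxp3- arrays. TFH exceeded naïve cells by 1.08 ± 0.23 (adjusted p = 0.0167), Treg differed from naïve cells by -1.30 ± 0.23 (adjusted p = 0.0323), and TFR from TFH by -2.17 ± 0.23 (adjusted p = 0.00511), or 4.48-fold. TFR minus Treg was 0.22 ± 0.23 with an interval from -0.37 to 0.81, and the difference of the follicular changes did not pass, with an adjusted p of 0.184. Without the d12 array of TFH the rise over naïve cells was 0.90 with an adjusted p of 0.086, and without the d12 array of naïve cells 0.86 with an adjusted p of 0.0948.

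Setd6, which methylates the NF-kB subunit RelA, was lower in follicular cells, at 7373 and 7401 RU in naïve cells, 3770 and 4048 RU in TFH, 6174 and 6291 RU in Treg, and 4158 and 4572 RU in TFR. The arrays of a cell type lay close together and the follicular cell types did not overlap their counterparts. It fell by 0.92 ± 0.08 in TFH (adjusted p = 0.00141) and by 0.52 ± 0.08 in TFR (adjusted p = 0.0103). Setd5 rose by 0.62 ± 0.10 in TFH and 0.45 ± 0.10 in TFR.

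Of 25 methyltransferases with other names, 4 were higher and 7 lower in each follicular comparison, so that 44% passed in each against 46.5% and 39.6% of all genes. Whsc1, the H3K36 methyltransferase NSD2, rose by 2.21 ± 0.13 in TFH and 1.48 ± 0.13 in TFR, from 102 and 110 RU in naïve cells to 494 and 483 RU in TFH and from 165 and 133 RU in Treg to 434 and 396 RU in TFR. Its paralogue Whsc1l1, or NSD3, went down by 1.05 ± 0.10 and 1.15 ± 0.10, from levels between 10324 and 11859 RU in naïve cells and Treg to levels between 5145 and 5560 RU in TFH and TFR. A further 3 genes of this list differed in their follicular change between Foxp3+ and Foxp3- cells. Prmt3, an arginine methyltransferase of ribosomal protein, rose in TFH by 1.44 ± 0.11 with 0.03 in TFR, a difference of -1.40 ± 0.15 (adjusted p = 0.0118). Smyd2 fell in TFH by 1.24 ± 0.11 with 0.03 in TFR, a difference of 1.27 ± 0.16 (adjusted p = 0.0173). Ash1l, another H3K36 methyltransferase, fell in TFR by 0.88 ± 0.09 with -0.05 in TFH, a difference of -0.83 ± 0.12 (adjusted p = 0.0252).

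Among the 13 Jumonji demethylases, 4 were higher and 1 lower in TFH, and 4 were higher and 2 lower in TFR, or 38.5% and 46.2% against 46.5% and 39.6% of all genes. The LSD enzymes Kdm1a and Kdm1b stayed between -0.24 and 0.10 and did not pass. Kdm2b recruits a variant of the Polycomb complex PRC1 to unmethylated CpG islands, and its probe lies at chr5:123320688-123320747. It read 5222 and 6172 RU in naïve cells, 9134 and 11898 RU in TFH, 8178 and 8458 RU in Treg, and 15633 and 20169 RU in TFR. TFR were the highest and naïve cells the lowest on both days. It rose by 0.88 ± 0.12 in TFH (adjusted p = 0.00408) and 1.09 ± 0.12 in TFR (adjusted p = 0.00333), and TFR exceeded TFH by 0.77 ± 0.12 (adjusted p = 0.013). A second probe gave smaller rises of 0.53 and 0.50.

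Subunits of PRC1, which ubiquitinates histone H2A, moved apart from each other. Of 15 tested, 4 were higher and 6 lower in TFH, and 3 were higher and 4 lower in TFR, or 66.7% and 46.7% against 46.5% and 39.6% of all genes. Cbx6 rose by 1.5 ± 0.16 in TFH and 1.18 ± 0.16 in TFR. Pcgf2 sat at the floor of 20 RU on all 4 arrays of naïve cells and Treg and read 111 to 141 RU on the 4 follicular arrays. It was kept only through the follicular cells, where it is high, and is among the 15 tested, so the PRC1 tallies are a description. Cbx2 and Phc1 were the 2 whose follicular change differed between lineages. Cbx2 fell by 1.19 ± 0.11 in TFH with 0.22 ± 0.11 in TFR, and Phc1 fell by 0.91 ± 0.10 in TFH and rose by 0.38 ± 0.10 in TFR, which gave differences of 1.42 ± 0.16 (adjusted p = 0.0129) and 1.28 ± 0.14 (adjusted p = 0.0122).

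Kdm6b, the H3K27 demethylase JMJD3 that opposes Ezh2, rose as well. It read 2330 and 2878 RU in naïve cells, 3169 and 3992 RU in TFH, 2275 and 2424 RU in Treg, and 3151 and 3662 RU in TFR. Each follicular cell type lay above its counterpart on both days. It rose by 0.46 ± 0.10 in TFH (adjusted p = 0.0175) and 0.53 ± 0.10 in TFR (adjusted p = 0.014), smaller in size than that of Ezh2. Its paralogue Kdm6a was left out.

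Kdm7a, a demethylase of H3K9 and H3K27, and the testis-rich Kdm4d were at the edge of detection. Kdm7a read 97 and 144 RU in naïve cells, 32 and 66 RU in TFH, 99 and 149 RU in Treg, and 20 and 22 RU in TFR. It was well above background on 1 of 2 TFH arrays and on neither TFR array. It passed the background filter through naïve cells and Treg, where it is high, so its folds are a description. Naïve cells were at least 2.34-fold above TFH and Treg at least 2.62-fold above TFR. Kdm4d read 20 RU on both naïve arrays, 47 and 57 RU in TFH, 29 and 62 RU in Treg, and 144 and 227 RU in TFR, and was well above background in TFR and on the d25 array of TFH. It passed the background filter through TFR alone, where it is high, and its differences are likewise a description. TFR was at least 3.04-fold above Treg and at least 3.52-fold above TFH, and no fold is given for TFH against naïve cells, where neither array was measured. Under normexp the log2 difference between TFR and Treg was 0.77 for Kdm4d and -0.72 for Kdm7a, and Kdm7a no longer passed between TFR and TFH (adjusted p = 0.0588). Kdm4c, which demethylates H3K9 and H3K36, was lower in TFR than in Treg, at -0.55 ± 0.13 (adjusted p = 0.0267).

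**Figure D4:**
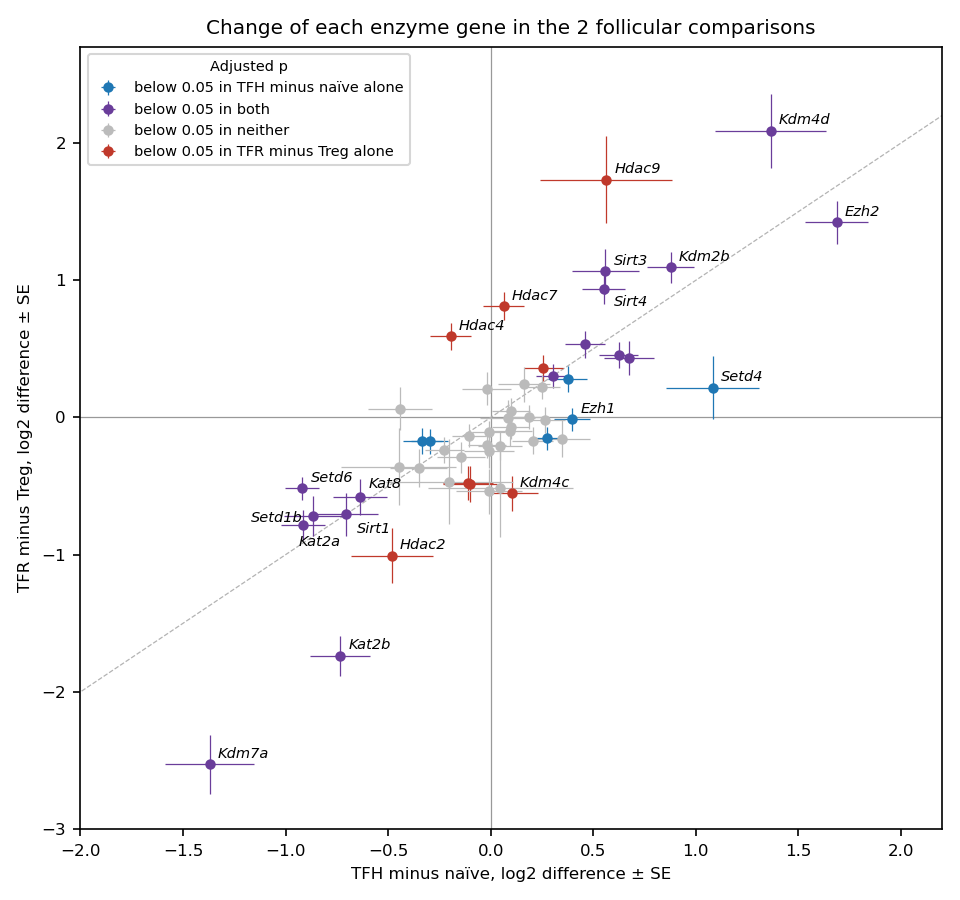
Log2 difference of each enzyme gene in TFH minus naïve cells (horizontal axis) and in TFR minus Treg (vertical axis), with bars of 1 SE from the fit, a dashed line of equal change and colours by the comparison in which the adjusted p was below 0.05. Ezh2 lies near the line at 1.69 and 1.42, Hdac4 and Hdac7 lie above it near 0 on the horizontal axis, and Kat2b lies below it at -0.73 and -1.74.

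Set directly against TFH, TFR differed in 16 of 54 enzymes, or 29.6%, against 22.1% of all genes, with 7 higher and 9 lower against 11.6% and 10.5%. This comparison shares the TFR and TFH arrays with those above. The 7 higher were Hdac4, Hdac6, Hdac7, Hdac9, Kdm2b, Kdm4d and Sirt5. The 9 lower were Setd4, Kdm7a, Kdm5b, Hdac5, Ezh1, Kdm4c, Kdm4b, Kdm2a and Sirt7. Of the 16, 5 were deacetylases of class II, 4 of them higher in TFR, and 5 of the 9 lower genes were Jumonji demethylases. The 54 enzymes held 4 class IIa and 2 class IIb deacetylases and 13 Jumonji demethylases. Hdac9, Kdm4d and Kdm7a, dim and kept only through the cell types in which they are high, are among the 16, so these tallies are a description. On d12, with both cell types on 1 slide, the log2 difference was 0.86 for Hdac7, 0.78 for Hdac6, 0.45 for Hdac4, 0.78 for Kdm2b, -0.76 for Ezh1, -0.69 for Hdac5 and -2.11 for Setd4. With slide as the block 6 enzymes passed, and the share of all genes under that setting is not given here.

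Treg and naïve cells differed in 5 of 54 enzymes, or 9.26%, against 9.88% of all genes. The 3 higher in Treg were Hdac6, Hdac9 and Hdac10 and the 2 lower were Hdac5 and Setd4, against 5.89% of all genes higher and 3.98% lower. Of the 5, 4 were class II deacetylases, of which the 54 enzymes held 4 of class IIa and 2 of class IIb. Hdac9, kept only through Treg and TFR, where it is high, is among the 5, so this tally is a description. On d12 the log2 difference was 0.74 for Hdac6, 0.49 for Hdac10, -0.57 for Hdac5 and -1.30 for Setd4, and on d25 0.73, 0.68, -0.54 and -1.31. With slide as the block none of the 5 passed in limma. With day as the block 19 of the 54 enzymes had an unadjusted p below 0.05, against 4325 of all 15764 genes. Ezh2 and Kdm2b were higher in Treg than in naïve cells by 0.54 ± 0.16 (adjusted p = 0.105) and 0.55 ± 0.12 (adjusted p = 0.0518).

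Between d12 and d25 none of the 54 enzymes passed in limma, against 0.0698% of all genes. An unadjusted p below 0.05 in limma was found for 18 of the 54 and for 4545 of all 15764 genes. Kdm2a had the lowest adjusted p of the enzymes, 0.0659, and was higher on d25 in 4 of 4 cell types, by 0.51 ± 0.07. Day and slide cannot be told apart in this comparison. With normexp background correction 5 of the enzymes passed, and the share of all genes under that setting is not given here.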

How the data were processed

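Each of the 8 samples was hybridized to a one-colour Agilent mouse array with 4 spots per probe. The authors deposited the raw spot intensity values written by Agilent Feature Extraction 10.7.3.1, with coordinates in NCBI37, and a table of normalized values whose scale is in RU. The intensity values deposited by the authors were processed as their methods describe: spots with outlier flags, beyond 1.42 interquartile ranges or with a pixel variation above 0.5 were left out, which kept 86.5 to 89.2% of spots, the remaining spots were averaged as a geometric mean, and arrays were quantile normalized, scaled to a 75th percentile of 1500 RU and floored at 20 RU. The result correlated with the authors' table at 0.999 on each array. The levels were then put on a log2 scale here.

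A probe was well above background where more than 50% of its kept spots carried that flag. Of several probes for a gene the brightest was used. limma 3.58.1 in R 4.3.3 was fitted to all 15764 genes with cell type and day as terms (3 residual degrees of freedom), with Benjamini-Hochberg adjustment over all genes. The fit was tested on simulated data. Intervals are 95%. A bound compares the mean of the bright group with that of the dim group, each dim array set to the higher of its own signal and its lowest signal well above background. The number of arrays limits the precision. Each array is 1 pool of mice, and the day term removes a shift shared by all cell types of a day. The p-values thus rest on the spread left after cell type and day. In it, differences between pools and changes of 1 cell type between days cannot be told apart. Peyer's patch samples were not analysed here.

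Named genes are, for each pairwise comparison, the 6 called enzymes with the largest difference and one direction on both days, those called in the comparison of changes, and Ezh1, Ezh2, Hdac1, Hdac2, Hdac3, Kdm6b, Sirt1, Kat2b, Kmt2a and Kmt2d. Of the partner lists, up to 3 called genes with the largest difference are named. Further genes named were chosen after their values were seen. Some genes of these lists are not reported here by name. The enzymes and all lists were chosen with earlier results of these data known. RefSeq promoter windows (GRCm38.p6) were matched by symbol, with Setd8 under its name Kmt5a. Alternatives were another scaling, normexp, the authors' table, no spot exclusion, other filters and probe rules, no day term, slide as a block, an intensity trend, a minimum difference, the methods' test and leaving out each array. Figures were drawn with matplotlib 3.10.9.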

Additional observations from a re-analysis of the deposited data

Results flagged for a closer look

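The follicular change differed between Foxp3+ and Foxp3- cells for 2 enzymes by the test of the difference itself, with a log2 difference of 0.79 for Hdac4 and 0.75 for Hdac7. For 4 further enzymes both days moved one way in TFH and the other way in TFR, with a difference that did not pass the test: -0.37 for Hdac10 (adjusted p = 0.184), -0.17 for Kat5 (adjusted p = 0.477), -0.66 for Kdm4c (adjusted p = 0.106) and -0.43 for Sirt7 (adjusted p = 0.0979). Another Sirt7 probe gave -0.11 in TFH, so its opposite directions rest on the brightest probe. With 2 arrays per cell type, no test for an outlying array within a cell type was made.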

How the results depend on the processing

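No sign changed for any of the 69 called values under the 20 alternatives and left-out arrays, but many of these could not change a sign. The minimum difference, the intensity trend, the fit without a day term and the filters on dim probes leave the fitted difference as it is. So does leaving out an array of a cell type outside a pairwise comparison. The call of Ezh2 in TFH and in TFR was the 1 in each comparison that held under all 20 alternatives and left-out arrays. The minimum log2 difference of 1 is among these alternatives and fails every smaller difference in advance. Counts moved by more than 1.5 times as follows. Without a day term (no pairing of arrays by day), 13 enzymes passed in TFH minus naïve, 14 in TFR minus Treg, 9 in TFR minus TFH, 0 in Treg minus naïve, 0 in the difference of changes and 18 in the follicular mean. With a minimum log2 difference of 1 these were 4, 8, 4, 2, 0 and 5. The methods' one-way test with Tukey adjustment, followed by Benjamini-Hochberg over all genes, gave 4, 3, 1 and 0 in the 4 pairwise comparisons. Without the filter on dim probes 14 passed in TFR minus Treg, 7 in TFR minus TFH, 1 in Treg minus naïve and 0 in the difference of changes. With slide as the block 6 passed in TFR minus TFH, 0 in Treg minus naïve and 0 in the difference of changes. With the mean of a gene's probes, and likewise with no spot excluded, 8 passed in Treg minus naïve. With an intensity trend 5 passed in the difference of changes and 7 between days, and between days 5 passed under normexp and 5 among genes well above background on all 8 arrays. In the limma fit as reported, 12 enzymes had an unadjusted p below 0.05 in the difference of changes and 19 in Treg minus naïve. Of all 15764 genes, 3991 and 4325 did so. The shares of all genes called under the alternatives and left-out arrays are not given here, so these counts cannot be read as particular to the enzymes. The cause of the shifts was not tested.

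Leaving out 1 array at a time, with the lone array of that cell type assumed to vary like the others, gave 7 to 16 enzymes in TFH minus naïve, 7 to 24 in TFR minus Treg, 2 to 11 in TFR minus TFH, 0 to 5 in Treg minus naïve, 0 in every case in the difference of changes, 19 to 26 in the follicular mean and 0 between days. The largest losses came in TFH minus naïve without the d12 arrays of naïve cells (7) and TFH (11) and the d25 array of naïve cells (12). In TFR minus Treg they came without TFR on d12 (9) or d25 (7) and without Treg on d12 (11) or d25 (10). In TFR minus TFH they came without TFR on d12 (2) or d25 (3), TFH on d25 (7), either Treg array (9) or either naïve array (10). In Treg minus naïve 0 passed without any 1 of the naïve or TFR arrays or Treg on d12, 1 without Treg on d25, and 5 without either TFH array. In the follicular mean 19 passed without Treg on d12. Dim signal limits Hdac2, Hdac9, Kdm4d and Kdm7a, whose fitted differences shrink under normexp: Hdac9 in TFR minus TFH was 1.5 there against 3.40.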
